A study of Mus musculus with 22 samples.

Results

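CD4 T cells carrying the label MUT were set against unmarked cells of the same kind in 3 populations, as pairs of poly(A) RNA-Seq libraries. Of 22 mouse libraries in the study, 6 entered: CD4+ MUT, non-Tfh MUT and Tfr MUT, and the unmarked CD4+, non-Tfh and Tfr. A library pair of follicular helper (Tfh) cells, Tfh MUT and Tfh, was kept out of the fit because its differences run the other way, and its values stand beside the others. The pairs were thus selected on the direction of these same MUT and unmarked differences, so the calls below describe 6 libraries and are not independent evidence. Per the labels, the CD4+ cells are CD4 T cells with no further sort given, the non-Tfh cells are activated CD4+CD44+ cells negative for CXCR5, PD1 and CD25, and the Tfr cells (T follicular regulatory) are CD4+CD44+ cells positive for all of CXCR5, PD1 and CD25. No sort is given for Tfh. What MUT stands for, and the genotype, strain, age and number of the animals behind the T cells, are not stated, and nothing says that libraries came from separate animals. Each group is 1 library, so the spread behind every error and call is how far the MUT difference varies between the 3 populations. Technical spread and true differences between populations cannot be told apart in it.

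The 6 libraries held 41.3 to 87.6 M expected counts, that is, estimated reads per gene. The Tfh MUT and Tfh libraries held 35.0 and 32.0 M. A gene at 9 to 11 TPM (transcripts scaled to a fixed sum per library, adjusted for transcript length) had a median of 538 counts in the shallowest of the 6, Tfr, where counting error alone gives a 95% Poisson interval of -8.27% to 8.82%. The marker genes went with the labelled populations. Cd4, which encodes the CD4 co-receptor, was at 709, 814 and 655 TPM in CD4+ MUT, non-Tfh MUT and Tfr MUT and at 686, 864 and 649 TPM in CD4+, non-Tfh and Tfr. Foxp3, which directs the regulatory fate, was at 579 TPM in Tfr MUT and 433 TPM in Tfr and at most 17.8 TPM in the other 4. Since these are bulk samples, fewer cells of a type and less RNA per cell cannot be told apart.

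Interferons are cytokines that signal through JAK kinases to STAT transcription factors. STAT dimers formed after interferon gamma bind the gamma-activated site (GAS) in DNA. A complex that holds STAT2 and IRF9, formed after type I interferons, binds the interferon-stimulated response element (ISRE). Their targets include the immunity-related GTPases (Irgm1, Irgm2, Igtp, Iigp1, Tgtp1 and Tgtp2) and the guanylate-binding proteins (Gbp genes), which act against pathogens inside the cell. T cells carry a second, faster layer of response, the immediate early genes such as Fos and Fosb, whose products are subunits of the AP-1 transcription factor and which are also known to be raised by the handling of cells and tissue.

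The promoters of 4 immunity-related GTPase genes are shown, out of 10 genes with a promoter on the list with the most calls. All 4 share the motif arrangement given below, so the display does not bear on how common it is. The Irgm1 promoter is shown because Irgm1 is a called family member with another arrangement. The letters are RefSeq's, build GRCm38.p6, 250 bases before the annotated start, 5′ to 3′ along the gene. Capitals mark matches to GAS (TTCNNNGAA) and ISRE (GAAANNGAAA), searched on both strands. The windows are chr11:48992247-48992496 (minus strand) for Tgtp1, chr11:49064213-49064462 (minus strand) for Tgtp2, chr11:58199306-58199555 (plus strand) for Igtp, chr11:58214727-58214976 (plus strand) for Irgm2 and chr11:48871421-48871670 (minus strand) for Irgm1.
Tgtp1: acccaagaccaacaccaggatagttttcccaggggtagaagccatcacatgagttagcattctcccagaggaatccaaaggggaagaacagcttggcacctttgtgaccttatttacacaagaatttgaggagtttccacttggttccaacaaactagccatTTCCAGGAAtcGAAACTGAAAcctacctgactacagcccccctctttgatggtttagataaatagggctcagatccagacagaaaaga
Tgtp2: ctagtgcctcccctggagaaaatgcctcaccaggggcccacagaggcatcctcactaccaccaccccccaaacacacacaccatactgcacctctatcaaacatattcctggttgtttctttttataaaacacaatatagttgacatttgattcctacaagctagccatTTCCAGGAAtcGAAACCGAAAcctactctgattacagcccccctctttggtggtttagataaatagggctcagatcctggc
Igtp: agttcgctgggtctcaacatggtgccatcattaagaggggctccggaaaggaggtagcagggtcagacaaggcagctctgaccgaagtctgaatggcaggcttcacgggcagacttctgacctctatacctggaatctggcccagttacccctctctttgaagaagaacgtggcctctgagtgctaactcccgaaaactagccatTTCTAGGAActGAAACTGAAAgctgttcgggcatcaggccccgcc
Irgm2: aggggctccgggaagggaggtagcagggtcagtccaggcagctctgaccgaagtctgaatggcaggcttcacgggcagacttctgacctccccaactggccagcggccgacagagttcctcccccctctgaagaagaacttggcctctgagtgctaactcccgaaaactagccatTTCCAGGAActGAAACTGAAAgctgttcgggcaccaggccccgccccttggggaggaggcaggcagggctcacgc
Irgm1: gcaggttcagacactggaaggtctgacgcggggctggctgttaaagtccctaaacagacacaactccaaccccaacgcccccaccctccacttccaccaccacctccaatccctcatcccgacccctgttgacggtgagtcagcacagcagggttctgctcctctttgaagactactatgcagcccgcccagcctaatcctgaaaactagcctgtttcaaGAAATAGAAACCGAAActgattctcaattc

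In Tgtp1, Tgtp2, Igtp and Irgm2 a GAS lay exactly 2 bases before an ISRE, with the ISRE beginning 77, 70, 34 and 64 bases before the start in that order. The GENCODE M21 positions used elsewhere here place Tgtp1 at 48985327 to 48994172 (minus strand). The Tgtp1 window lies inside that gene model, so the annotations differ on its start. The Irgm1 window held 2 overlapping ISRE matches and no GAS. Of 10177 tested genes with a promoter in the table, 5 (0.0491%) had a GAS 2 bases before an ISRE, namely these 4 and Gm12185, which overlaps Tgtp1. This spacing was noticed after the sequences had been read. Over the list of interferon-inducible GTPases, which also holds genes of other kinds such as Irf1, 9 of 10 genes with a promoter held an ISRE and 7 held a GAS. Over all 10177 the shares were 3.30% for ISRE and 7.19% for GAS. Of 21 genes called higher in MUT, 10 had a promoter in the table, and 5 of these held an ISRE and 4 a GAS. One of the 4 was Socs3, with a GAS and no ISRE at chr11:117969367-117969616 (minus strand), shown for comparison with the GTPase promoters. GENCODE M21 places Socs3 at 117966079 to 117970047 (minus strand), so this window too lies inside that gene model.
Socs3: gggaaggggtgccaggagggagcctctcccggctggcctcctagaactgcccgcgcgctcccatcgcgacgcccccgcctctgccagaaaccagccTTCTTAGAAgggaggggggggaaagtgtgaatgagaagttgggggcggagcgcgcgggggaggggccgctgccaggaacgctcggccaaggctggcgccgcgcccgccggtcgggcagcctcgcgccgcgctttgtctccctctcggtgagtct

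A paired fit (edgeR, population as block) called 25 of 12958 genes at an adjusted p of at most 0.05, which is 0.193% of genes tested. Of these, 21 (0.162%) rose in MUT and 4 (0.0309%) fell. The MUT library lay on the same side of its unmarked partner in all 3 pairs for each of the 25, and on the other side in the Tfh pair for each of them. Changes were at least 2-fold for 16 of the 25. At an unadjusted p under 0.05 there were 959 genes (7.40%), 604 higher (4.66%) and 355 lower (2.74%) in MUT. Of 11220 genes at a mean of 1 TPM or more over the 8 libraries, 27.0% had the same sign in all 3 pairs, in either direction. Counts of list members with 1 sign in all 3 pairs, given below, stand beside that share. The median log2 fold change of all genes tested was 0.00. The count rests strongly on single libraries: without non-Tfh MUT or without non-Tfh 2 genes were called (Zfp990 and Rab6b each time), without Tfr MUT 452 and without Tfr 644, and all 25 were among each of those last counts.

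The gene with the widest separation was Zfp990, which encodes a zinc finger protein (chromosome 4, 145510759 to 145539188, mm10, GENCODE M21). It was at 38.4, 47.1 and 24.4 TPM in CD4+ MUT, non-Tfh MUT and Tfr MUT, against 0.04, 0.14 and 0.06 TPM in CD4+, non-Tfh and Tfr. The MUT libraries were all high and the unmarked ones close to 0, with no overlap. In counts these were 7148 over the 3 MUT libraries and 12 over the 3 unmarked ones, a ratio of 520 per total count with a 95% interval of 297 to 1006 that covers counting error only. The fitted log2 fold change was 8.99 ± 0.29 (SE, 3 pairs). Here and below, the SE is worked back from the F statistic of the test, as the size of the change over the square root of F. With so few unmarked counts, the estimate and its SE also depend on the prior count that edgeR adds. The library labelled Tfh MUT had 0.29 TPM and the one labelled Tfh had 28.5 TPM, so in the Tfh pair the unmarked library was the high one. In the other 14 libraries of the study, which hold B cells, ConA-activated CD4+ cells, brain and skin, Zfp990 reached at most 0.77 TPM.

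Zfp990 lies at one end of a stretch of zinc finger genes on chromosome 4 that ends with Zfp534 (147673502 to 147702553). Zfp534 rose, with 5.42, 5.74 and 3.09 TPM in CD4+ MUT, non-Tfh MUT and Tfr MUT, against 0.05, 0 and 0 TPM in CD4+, non-Tfh and Tfr. Its ratio of summed counts, 995 in MUT against 5 in unmarked libraries, was 174 with a counting interval of 74.1 to 536. The fitted log2 fold change, 7.59 ± 0.63, depends on the prior count that edgeR adds. This gene was chosen after its values were seen, since its level is under the 10 TPM asked of named genes. Between Zfp990 and Zfp534, both included, 13 genes were tested, 11 of them with Zfp names, and 11 of the 13 were higher in all 3 MUT libraries. The stretch was bounded by Zfp990 and Zfp534 because of their values, so these are among the 11 by choice. Over all genes at a mean of 1 TPM or more, 27.0% had the same sign in the 3 pairs, in either direction. That share leaves out genes at lower levels, so it is not a like measure for these 13, and no regional effect was tested. Among the 11, Zfp980, Zfp600, Zfp981, Rex2 and Zfp979 were at most 0.48 TPM in all 8 libraries, so their direction rests on very low levels. Apart from Zfp990 and Zfp534, no gene of the stretch was called. Zfp985 came nearest, at 2.70, 4.87 and 2.76 TPM in CD4+ MUT, non-Tfh MUT and Tfr MUT and 0.64, 0.93 and 0.87 TPM in CD4+, non-Tfh and Tfr (log2 fold change 2.08 ± 0.25). Its groups did not overlap, but its levels were low on both sides. By contrast Zfp991, at 10.9, 15.4 and 19.1 TPM in CD4+ MUT, non-Tfh MUT and Tfr MUT and 10.2, 14.6 and 17.6 TPM in CD4+, non-Tfh and Tfr, differed little within each pair, and the groups overlapped. Genes of this stretch are close copies of one another, and RSEM divides shared reads among them, so the split of reads between neighbours is uncertain.

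Rab6b went the other way. It encodes a small GTPase of Golgi transport known above all from neurons (chromosome 9, 103111787 to 103185276). Its levels were 1.57, 2.09 and 2.92 TPM in CD4+ MUT, non-Tfh MUT and Tfr MUT, against 27.2, 19.5 and 35.5 TPM in CD4+, non-Tfh and Tfr. Within these 6 libraries every MUT library was low and every unmarked one high. Rab6b fell by 3.59 ± 0.18 on the log2 scale. The library labelled Tfh MUT had 18.1 TPM and the one labelled Tfh 1.39 TPM. In the 3 brain libraries of the study it was at 352 to 647 TPM, and in the other libraries outside the T cells it was at most 6.98 TPM, in splenic B cells. The ConA-activated CD4+ library, which carries no MUT label, had 0.55 TPM, below all 3 MUT libraries of the fit. High Rab6b is thus not shared by every unmarked T-cell library of the study.

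**Figure D1:**
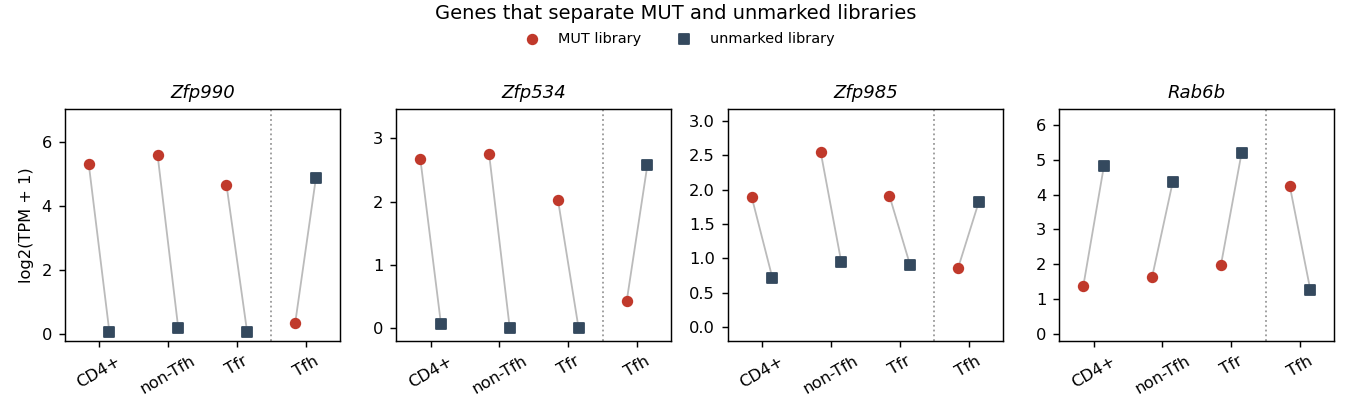
Levels of Zfp990, Zfp534, Zfp985 and Rab6b as log2(TPM + 1) in the 8 libraries, 1 point per library, MUT (red circles) left of unmarked (dark squares) in each population, with a line joining the pair and a dotted line before the Tfh pair, which was not in the fit. The 3 zinc finger genes are high in MUT and Rab6b low in MUT in CD4+, non-Tfh and Tfr, and all 4 run the other way in Tfh.

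Of 14 genes on the list of interferon-inducible GTPases, 8 rose in MUT and the other 6 did not pass the test. All 14 were higher in MUT in each of the 3 pairs, a direction that the choice of pairs bears on. Their median log2 fold change was 0.90, with a range of 0.62 to 1.72. The summed level of the 14 was 2682, 2626 and 2472 TPM in CD4+ MUT, non-Tfh MUT and Tfr MUT, against 1426, 1364 and 1514 TPM in CD4+, non-Tfh and Tfr. The MUT libraries thus stood close together and above all 3 unmarked ones.

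Iigp1, an immunity-related GTPase that attacks the vacuoles of intracellular parasites, was at 91.8, 108 and 145 TPM in CD4+ MUT, non-Tfh MUT and Tfr MUT and at 25.8, 29.4 and 58.7 TPM in CD4+, non-Tfh and Tfr. It rose by 1.72 ± 0.11, the most on the list, and its lowest MUT library stood above its highest unmarked one. In the other 14 libraries of the study it was at most 4.68 TPM.

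Tgtp1 and Tgtp2 are near-identical genes of the same family, so the split between them is uncertain. Tgtp1 was at 218, 173 and 67.4 TPM in CD4+ MUT, non-Tfh MUT and Tfr MUT and at 110.4, 62.3 and 23.7 TPM in CD4+, non-Tfh and Tfr (rise of 1.37 ± 0.13). Tgtp2 was at 208, 217 and 115 TPM in the MUT libraries in that order and at 106, 101 and 63.9 TPM in the unmarked ones (rise of 1.03 ± 0.08). In both genes MUT was higher within every pair. The groups as a whole overlapped for Tgtp1, whose Tfr MUT library was below the unmarked CD4+ one, and did not overlap for Tgtp2. Igtp was at 340 (CD4+ MUT), 301 (non-Tfh MUT) and 277 TPM (Tfr MUT), against 179, 165 and 160.2 TPM in CD4+, non-Tfh and Tfr, with no overlap and a rise of 0.91 ± 0.09. Together with Irgm1 (0.79 ± 0.08), these genes have the promoters printed above. Irgm2, which carries the same pair of motifs, was not called, at 0.62 ± 0.09.

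Among the guanylate-binding proteins, Gbp6 (0.93 ± 0.08), Gbp10 (1.25 ± 0.13, not on the list) and Gbp4 (0.75 ± 0.09) rose. Gbp2 was at 157, 146 and 107 TPM in CD4+ MUT, non-Tfh MUT and Tfr MUT and 74.0, 73.3 and 79.2 TPM in CD4+, non-Tfh and Tfr, and was not called (0.89 ± 0.12), nor were Gbp5 (0.96 ± 0.13), Gbp7 (0.68 ± 0.08) or Gbp3 (0.75 ± 0.13). The Gbp2 pair difference was 0.42 in Tfr and 1.08 and 0.98 in CD4+ and non-Tfh, on the log2(TPM + 1) scale. Gbp genes are paralogs with shared stretches, and their separate values carry that uncertainty. Irf1, an interferon-induced transcription factor, was not called either (0.63 ± 0.10).

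Of 20 genes of the type I interferon response, 1 was called, and 19 were higher in MUT in all 3 pairs, with a median log2 fold change of 0.65 (range 0.29 to 1.61). The called gene was Usp18, which encodes the protease that removes ISG15 from proteins and dampens interferon receptor signalling. It was at 66.3, 58.4 and 53.2 TPM in CD4+ MUT, non-Tfh MUT and Tfr MUT, against 37.0, 26.1 and 23.4 TPM in CD4+, non-Tfh and Tfr. The groups did not overlap, and Usp18 rose by 1.11 ± 0.12. Ifi44 had a larger estimate but low levels and was not called (1.61 ± 0.21, with 4.39 to 6.73 TPM in MUT and 1.72 to 2.24 TPM in unmarked libraries). Isg15, a ubiquitin-like protein, was at 77.7, 75.5 and 114 TPM in CD4+ MUT, non-Tfh MUT and Tfr MUT and 43.2, 72.4 and 54.7 TPM in CD4+, non-Tfh and Tfr. Its non-Tfh pair hardly differed, and the gene was not called (0.71 ± 0.23). Irf7 (0.44 ± 0.16), Irf9 (0.29 ± 0.10) and Stat2 (0.48 ± 0.11) had the smaller estimates and were not called.

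The pairs ranked the 2 lists differently. Median differences of log2(TPM + 1) for the GTPase list were 0.94 in CD4+, 0.93 in non-Tfh and 0.57 in Tfr. For the type I list they were 0.58 in CD4+, 0.45 in non-Tfh and 0.77 in Tfr. In the Tfh pair the medians were -0.89 and -0.94. Whether the lists differ between pairs was not tested.

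**Figure D2:**
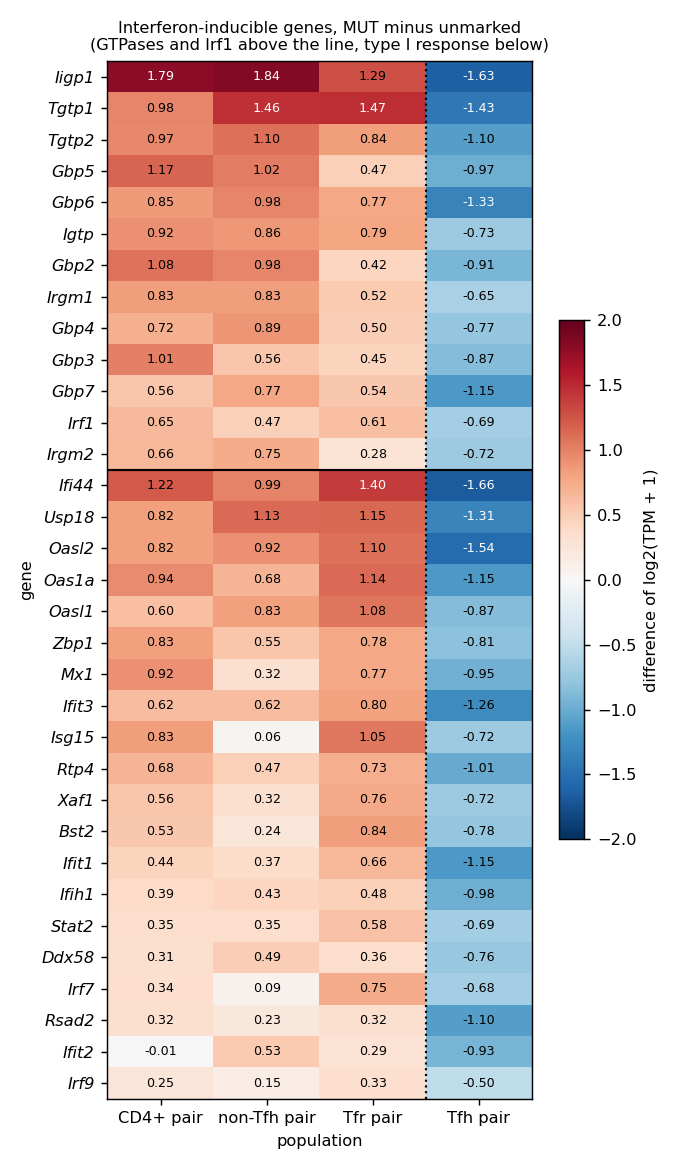
Differences of log2(TPM + 1), MUT minus unmarked, for genes of the GTPase list (above the line, with Irf1) and of the type I interferon list (below it), in the 4 pairs, genes ordered by the fitted change. Red marks higher in MUT and blue lower. Of the values in the CD4+, non-Tfh and Tfr columns, that of Ifit2 in CD4+, -0.01, is the one below 0, and the Tfh column is below 0 throughout.

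Called genes outside the interferon lists included regulators of cytokine and NF-kB signalling. Socs3, an inhibitor of cytokine receptor signalling and a STAT target, was at 255, 250.1 and 119 TPM in CD4+ MUT, non-Tfh MUT and Tfr MUT and at 153, 131 and 58.2 TPM in CD4+, non-Tfh and Tfr. It rose by 0.95 ± 0.11, within every pair, although Tfr MUT was below the unmarked CD4+ library. Bcl3, an atypical inhibitor protein of the NF-kB family that works in the nucleus, was at 116, 83.8 and 154 TPM in the MUT libraries in the same order and at 52.97, 46.1 and 96.4 TPM in the unmarked ones, a rise of 0.94 ± 0.10 with overlap between the sides. Bcl3 was the 1 called gene among 16 NF-kB subunits and targets. The list's median was 0.35, with 10 genes higher in all 3 pairs. Tnfaip3, the NF-kB inhibitor A20, was at 78.2, 92.3 and 314 TPM in CD4+ MUT, non-Tfh MUT and Tfr MUT and 47.2, 58.4 and 110.5 TPM in CD4+, non-Tfh and Tfr, and was not called (1.01 ± 0.21). Nfkb2 (0.66 ± 0.09) and Relb (0.60 ± 0.10), subunits of the alternative NF-kB pathway, were not called either.

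Rgs1, which dampens chemokine receptor signals, differed more between populations than within pairs. It was at 12.8, 86.7 and 386 TPM in CD4+ MUT, non-Tfh MUT and Tfr MUT and at 6.71, 31.3 and 145 TPM in CD4+, non-Tfh and Tfr, and rose by 1.34 ± 0.13. Abcb1a, a drug efflux pump, had the same shape, at 5.82, 44.7 and 99.1 TPM in the MUT libraries and 2.48, 25.02 and 54.99 TPM in the unmarked ones (1.01 ± 0.11). Tgm2, the protein-crosslinking enzyme transglutaminase, was at 4.87, 13.2 and 15.6 TPM in CD4+ MUT, non-Tfh MUT and Tfr MUT and at 0.22, 1.95 and 1.97 TPM in CD4+, non-Tfh and Tfr. Here the lowest MUT library was above the highest unmarked one, and Tgm2 rose by 3.36 ± 0.33. The other called genes outside the rule for named genes, given after their values were seen, were Apol7e, of the apolipoprotein L family (0.82 ± 0.10), Pmepa1, an inhibitor of TGF-beta signalling (0.86 ± 0.10), and Gprc5b, an orphan G protein-coupled receptor, which fell (-1.90 ± 0.16). One unnamed gene model was also called higher.

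Of 22 immediate early and AP-1 genes, 1 was called and 10 were higher in MUT in all 3 pairs, with a median log2 fold change of 0.40. That gene was Fosb, at 15.8, 60.1 and 56.8 TPM in CD4+ MUT, non-Tfh MUT and Tfr MUT, against 2.38, 6.72 and 3.42 TPM in CD4+, non-Tfh and Tfr. Every MUT library was above every unmarked one, and Fosb rose by 3.36 ± 0.28. Fos was at 230 (CD4+ MUT), 324 (non-Tfh MUT) and 212 TPM (Tfr MUT), against 109, 105 and 23.1 TPM in CD4+, non-Tfh and Tfr. Its groups did not overlap, but the size of the gap varied between pairs, and it was not called (1.98 ± 0.41). Jun was nearly equal in the CD4+ pair, at 492 TPM in CD4+ MUT and 436 TPM in CD4+, and far apart in the Tfr pair, at 431 TPM in Tfr MUT and 38.8 TPM in Tfr. Jun (1.66 ± 0.61), Junb (1.06 ± 0.31), Klf4 (2.68 ± 0.59) and Dusp1, a MAP kinase phosphatase (1.38 ± 0.36), were not called. The list's median difference was 0.06 in CD4+, 0.13 in non-Tfh, 0.84 in Tfr and -0.96 in Tfh. Without Tfr MUT or without Tfr the list's median log2 fold change was 0.03, and without either non-Tfh library it was 0.60. Immediate early genes are known to respond to handling, as are heat shock genes. Of 13 heat shock genes none was called and 7 were higher in MUT in all 3 pairs, with a median of 0.23. Their median difference was 0.15 in CD4+, 0.33 in non-Tfh, 0.11 in Tfr and 0.18 in Tfh, so the median did not turn in Tfh. Of the 7 genes higher in all 3 pairs, however, 5 were lower in Tfh MUT than in Tfh. Over all genes at a mean of 1 TPM or more with the same sign in the 3 pairs, 70.5% were opposite in Tfh. Hspa1a, an inducible HSP70, had the largest estimate among the 13 heat shock genes (2.06 ± 0.70). It was at 37.4, 145 and 147 TPM in CD4+ MUT, non-Tfh MUT and Tfr MUT and 24.9, 50.5 and 7.36 TPM in CD4+, non-Tfh and Tfr. The part of handling in the Fosb values was not tested.

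**Figure D3:**
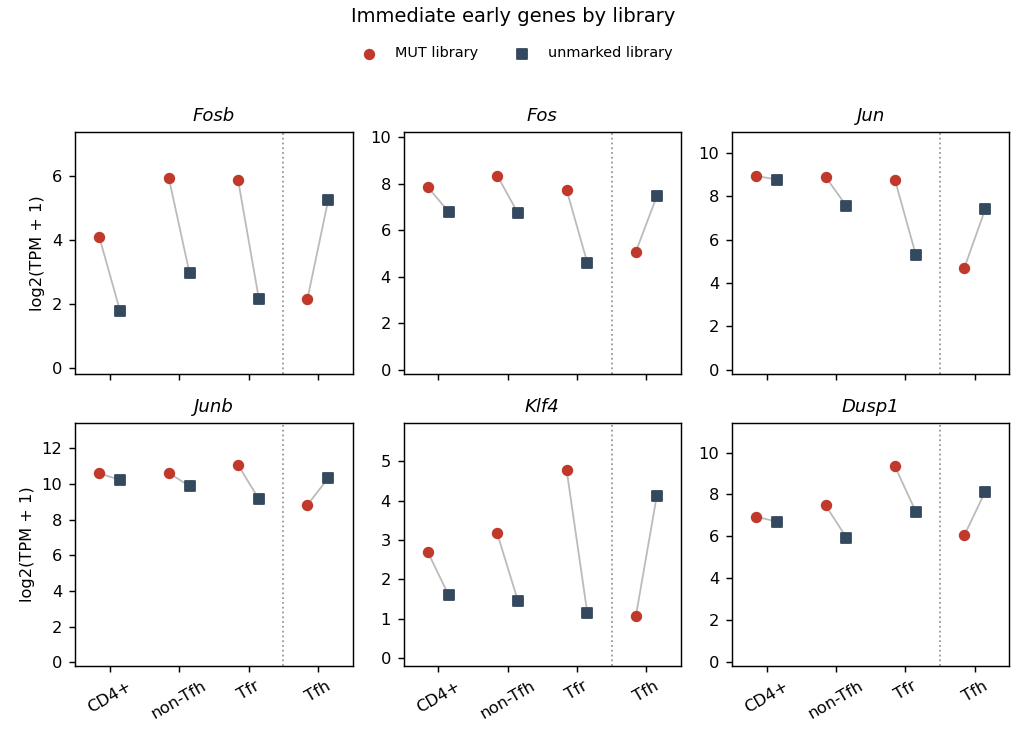
Levels of 6 immediate early genes as log2(TPM + 1) in the 8 libraries, MUT (red circles) left of unmarked (dark squares) in each population, joined by a line, with the Tfh pair right of the dotted line. Fosb is wide apart in all 3 pairs in the fit, while Jun, Junb and Dusp1 are close in CD4+ and widest in Tfr or Tfh.

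Besides Rab6b and Gprc5b, 2 genes fell in MUT. Ctse, the aspartic protease cathepsin E, was at 22.5, 21.0 and 22.6 TPM in CD4+ MUT, non-Tfh MUT and Tfr MUT, against 47.8, 51.6 and 45.9 TPM in CD4+, non-Tfh and Tfr. Its levels were nearly the same in all libraries of a side, and it fell by 1.09 ± 0.12 on the log2 scale. Mtss1, a protein that links membrane curvature and actin, was at 26.7, 10.6 and 9.55 TPM in the MUT libraries in that order and 46.6, 16.9 and 17.0 TPM in the unmarked ones. It was lower within every pair, with overlap between the groups, and fell by 0.72 ± 0.09.

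The next genes by unadjusted p did not pass the threshold. Pink1, a kinase that marks damaged mitochondria for removal, was at 54.5, 58.0 and 66.9 TPM in CD4+ MUT, non-Tfh MUT and Tfr MUT and 117, 115 and 109 TPM in CD4+, non-Tfh and Tfr (log2 fold change -0.88 ± 0.12). Its groups did not overlap. H2-Ob, which encodes a modulator of class II peptide loading, was at 21.0, 29.6 and 21.0 TPM in the MUT libraries and 50.5, 41.5 and 45.1 TPM in the unmarked ones (-0.90 ± 0.14), also with no overlap. Adk (adenosine kinase, -0.58 ± 0.09), Aff3 (-0.60 ± 0.10), Rras2 (a Ras-related GTPase, -0.81 ± 0.12), Cdc25b (a cell-cycle phosphatase, -0.86 ± 0.13), Ddr1 (a collagen receptor, -1.01 ± 0.14), Itga7 (a laminin-binding integrin chain, -0.99 ± 0.12), Kif23 (-0.66 ± 0.12), Pik3r5 (-0.45 ± 0.08) and Vipr1 (a receptor for vasoactive intestinal peptide, -0.68 ± 0.10) complete that set, with Dapl1 (-1.41 ± 0.26).

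Lists that define T-cell states held no called gene. Of 20 regulatory T-cell genes, 8 were higher in MUT in all 3 pairs and 1 lower, with a median of 0.25 (0.17 to 0.40 with 1 library left out, the highest without non-Tfh MUT or non-Tfh). Lrrc32, which presents TGF-beta on the surface of regulatory T cells, was at 170.5 TPM in Tfr MUT and 105 TPM in Tfr (0.94 ± 0.14 over 3 pairs). The 21 genes of the Tfh programme had a median of 0.04, which was -0.13 without CD4+ MUT or CD4+, -0.02 without Tfr MUT or Tfr and 0.14 to 0.15 without either non-Tfh library. The 14 of T-cell identity had a median of 0.15, which was -0.01 to 0.00 without either Tfr library and 0.29 without either non-Tfh library. Single libraries thus decide the sign of both medians. Naive T-cell genes had a median of -0.16 over 16 genes (-0.14 to -0.09 with 1 library left out, the smallest in size without Tfr MUT or Tfr). Xcl1, a chemokine that attracts dendritic cells, had the largest estimate among 14 tested cytokine genes (2.53 ± 0.40, not called). It was at 45.0 TPM in non-Tfh MUT and 9.90 TPM in non-Tfh, at 145 TPM in Tfr MUT and 16.8 TPM in Tfr, and at most 0.37 TPM in the CD4+ pair. Ribosomal protein genes (22 tested) had a median of 0.04, or -0.03 without Tfr MUT or Tfr and 0.10 without either non-Tfh library. Respiratory chain genes (20 tested) had a median of 0.02, or 0.12 without either non-Tfh library.

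Mitosis genes had a median of -0.40 over 20 genes, none called, and the pairs did not go the same way. Without Tfr MUT or Tfr it was -0.07, and without CD4+ MUT or CD4+ it was -0.66. The median difference was 0.14 in CD4+, -0.27 in non-Tfh, -1.12 in Tfr and 1.39 in Tfh. Transcripts of B cells moved with the same pairs. The 18 B-cell markers summed to 235, 251 and 291 TPM in CD4+ MUT, non-Tfh MUT and Tfr MUT, against 211, 232 and 839.7 TPM in CD4+, non-Tfh and Tfr, and to 1178 TPM in Tfh MUT and 353 TPM in Tfh. Cd79a, which encodes a signalling chain of the B-cell receptor, was at 35.3, 40.5 and 41.3 TPM in the MUT libraries and 34.4, 39.3 and 171 TPM in the unmarked ones. Class II genes of the MHC summed to 631, 696 and 1100.1 TPM in the MUT libraries and 571, 689 and 2752 TPM in the unmarked ones. The Tfr library therefore stood apart in B-cell transcripts, while in the CD4+ and non-Tfh pairs both sides were close. In those 2 pairs the median differences were 0.94 and 0.93 for the interferon GTPases and 0.58 and 0.45 for the type I list, and in the Tfr pair they were 0.57 and 0.77. How far B-cell transcripts bear on these differences was not tested.

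Markers of further cell types were summed in the same way. The 14 macrophage and monocyte markers in the files, of which 8 were tested, summed to 382, 411 and 773 TPM in CD4+ MUT, non-Tfh MUT and Tfr MUT, against 311, 344 and 545 TPM in CD4+, non-Tfh and Tfr. In the Tfh pair they summed to 481 TPM in Tfh MUT and 508 TPM in Tfh. These sums were thus higher in MUT in the 3 pairs of the fit and lower in Tfh MUT, the same order as the called genes that rose. The list's genes as a set did not follow the sums. Median differences over the 8 tested were 0.03 in CD4+, -0.01 in non-Tfh, -0.21 in Tfr and 0.41 in Tfh. Of the 8, 3 had a positive log2 fold change and 5 a negative one, and 1 was higher in all 3 pairs and 1 lower. Lyz2, a defining macrophage gene and 1 of the 14, was at most 1.09 TPM, so other members made up these sums. The 12 CD8 and natural killer markers summed to 61.1, 259.9 and 292 TPM in CD4+ MUT, non-Tfh MUT and Tfr MUT, against 72.4, 244 and 127 TPM in CD4+, non-Tfh and Tfr, and to 152 TPM in Tfh MUT and 425 TPM in Tfh. Cd8a among them was at most 0.32 TPM, so here too other members made up the sums. Neutrophil markers summed to at most 2.20 TPM, with S100a8 and Retnlg at 0 in all 8 libraries. The part of B-cell, macrophage or killer cell transcripts in the values of the interferon, mitosis and other genes was not tested.

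**Figure D4:**
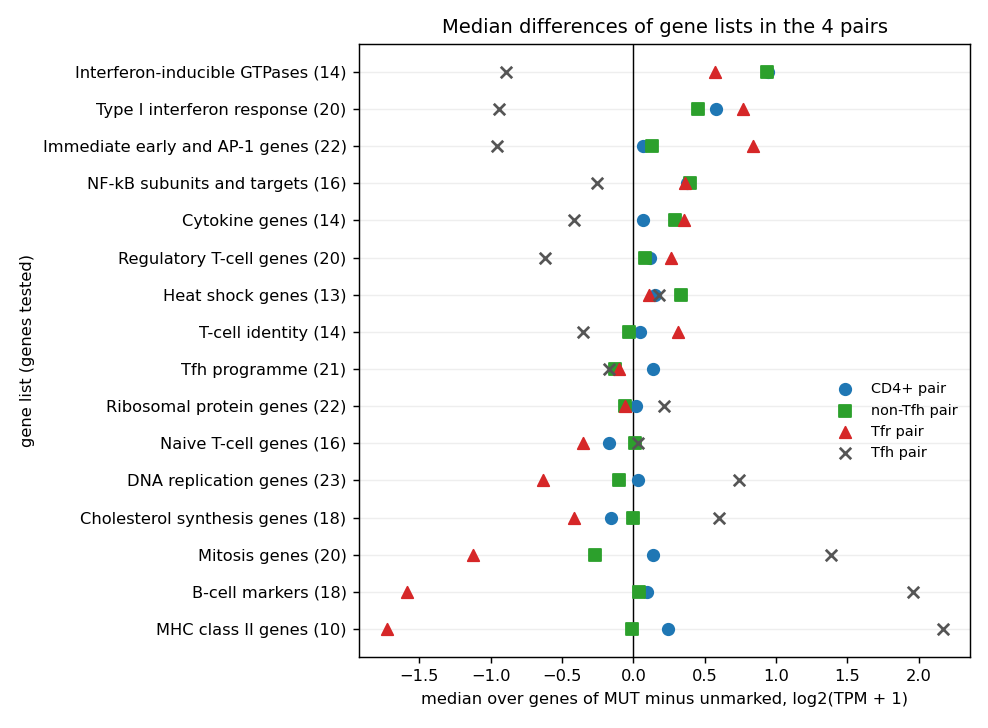
Median over the tested genes of each list (number in brackets) of the difference of log2(TPM + 1), MUT minus unmarked, 1 marker per pair. The 3 pairs in the fit lie right of 0 for both interferon lists and for the NF-kB, immediate early, cytokine, regulatory T-cell and heat shock lists. B-cell, class II and mitosis lists are far from 0 in Tfr and Tfh, in opposite directions. In CD4+ and non-Tfh they are near 0 apart from the mitosis median of -0.27 in non-Tfh and the class II median of 0.24 in CD4+.

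The Tfh pair, 1 library a side and outside the fit, ran against the other 3 for all 25 called genes. Across 11220 genes at a mean of 1 TPM or more, 3034 (27.0%) had the same sign in the CD4+, non-Tfh and Tfr pairs, and 2140 of these (70.5%) had the opposite sign in the Tfh pair. Pearson's r of the pair differences across these genes, which are not independent and share no library between pairs, was 0.40 for CD4+ with non-Tfh, 0.16 for CD4+ with Tfr and 0.13 for non-Tfh with Tfr. With Tfh it was -0.07 for CD4+, -0.16 for non-Tfh and -0.77 for Tfr. The strong negative value with Tfr takes in the B-cell, class II and mitosis genes, which were lower in Tfr MUT than in Tfr and higher in Tfh MUT than in Tfh. With all 8 libraries in 1 fit, edgeR called 0 of 13064 genes (0%), with 192 (1.47%) at an unadjusted p under 0.05. The other called genes in the Tfh pair can be read from their values: Igtp and Fosb were at 109 and 3.45 TPM in the library labelled Tfh MUT and at 181 and 37.0 TPM in the one labelled Tfh. Ctse was at 49.1 TPM in Tfh MUT and 25.9 TPM in Tfh. The source of this opposite direction was not tested. Whether labels were exchanged within the Tfh pair, or among the Tfr and Tfh libraries, was not tested either, and an exchange within the Tfh pair would turn the sign of every Tfh difference given here.

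**Figure D5:**
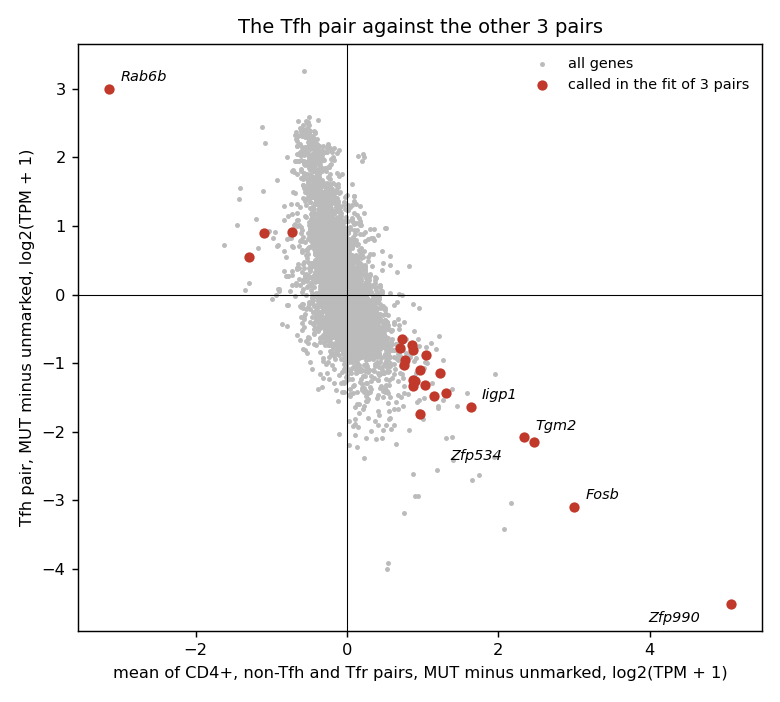
Each point is a gene at a mean of 1 TPM or more, with the mean difference of log2(TPM + 1), MUT minus unmarked, over the CD4+, non-Tfh and Tfr pairs on the x axis and the same difference in the Tfh pair on the y axis, and red points are genes called in the fit of 3 pairs. The called genes lie in the upper left and lower right of the plot, with Zfp990 and Rab6b at the ends.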

How the data were processed

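Each deposited file holds, per the file headers, an expected count (estimated reads per gene, not normalized), a TPM and an FPKM per gene. FPKM was not used. The deposited TPM adjust for length and add up to a fixed total per library. RSEM, STAR, bedtools and CASAVA 1.8.2 with the mm10 build are named in the submitters' processing notes. Their order and settings are not given in the sources used here. Library strandedness is likewise not given, so overlapping and antisense genes cannot be told apart. Per the labels, RNA came from 0.5 M cells and was sequenced for 50 cycles.

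Of 24911 rows, the 20674 protein-coding ones were kept. Expected counts (86.4% whole within 1e-09) were rounded and fitted in edgeR 4.0.16, R 4.3.3 (filterByExpr, TMM, quasi-likelihood F-test, population as block, Benjamini-Hochberg over all genes tested, threshold 0.05), checked on simulated data. The block pairs libraries of 1 population and is part of the comparison, since a replicate number is not given. A "called" gene passed that threshold. Values after ± are SE worked back from the F statistic, as the absolute log2 fold change over the square root of F. Differences per pair are of log2(TPM + 1), which understates low genes. Named genes were the 15 per direction with the largest change among called genes with 1 sign in all 3 pairs and a mean of at least 10 TPM on the higher side. Places left over went to the smallest unadjusted p. Members of 42 gene lists could also be named (13 listed genes were absent). Some genes are not reported here. Members and lists were chosen with earlier results of these data known. Alternatives used limma 3.58.1 and DESeq2 1.42.0. Tables came from pandas 2.3.3 with numpy 2.4.6, counting intervals from scipy 1.17.1 and figures from matplotlib 3.10.9. Positions are GENCODE M21. Chromatin accessibility data were not analysed here.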

Additional observations from a re-analysis of the deposited data

Results flagged for a closer look

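Among the named genes, the Tfh pair moved against every one of the 3 other pairs in 5, with a difference of at least 1 on the log2(TPM + 1) scale in each pair. Genes outside the named set were not searched. This opposite direction is what led to the Tfh pair being left out, so it is no separate finding, and the difference between pairs was not tested. On the log2(TPM + 1) scale, the library labelled Tfh MUT minus the one labelled Tfh was -4.51 for Zfp990, -2.08 for Tgm2, -3.09 for Fosb, -1.63 for Iigp1 and 3.0 for Rab6b. In the CD4+, non-Tfh and Tfr pairs, MUT was higher for the first 4 of these genes and lower for Rab6b.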

How the results depend on the processing

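The count of 25 called genes was 25 with RLE size factors (all 25 shared), 31 with limma on log2(TPM + 1) (19 shared) and 35 with a pseudocount of 0.1 (22 shared). It was 89 with no filter on low counts and 245 with DESeq2, each including all 25. It was 0 in 3 settings: with limma and no filter on TPM (837 of 16673 genes at an unadjusted p under 0.05), with edgeR and all 8 libraries (192 of 13064), and with edgeR and no replicate block, that is, without population as a block (111 of 12433). Leaving out 1 library gave 2 to 644 calls: 2 without either non-Tfh library, 34 without either CD4+ library, 452 without Tfr MUT and 644 without Tfr. A population left with 1 library then adds nothing to the difference, so these fits rest on 2 pairs. The cause of the spread was not tested. Among the named genes no estimate changed sign. Over all settings, the 18 called ones kept the call 154 times and lost it 98 times, and the 12 not called gained it 53 times and stayed uncalled 115 times. With 1 library per group and no stated separate animals, depth is not the only limit: the errors hold no known spread between animals, and RSEM's division of reads limits Tgtp1, Tgtp2, Gbp and chromosome 4 Zfp values.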

Other observations

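Some list members outside the interferon and early gene groups had values in all 3 pairs that the text has not yet given. None passed the threshold. Itgb1, the integrin beta 1 chain, was at 22.1, 211 and 160.0 TPM in CD4+ MUT, non-Tfh MUT and Tfr MUT and at 25.3, 471 and 375 TPM in CD4+, non-Tfh and Tfr (log2 fold change -0.82 ± 0.20). Cebpb, a transcription factor of inflammatory responses, was at 46.4, 62.1 and 99.3 TPM in the MUT libraries and 32.1, 38.0 and 33.9 TPM in the unmarked ones (0.97 ± 0.23), with no overlap between the sides. Id3, an inhibitor of E proteins, was at 66.7, 55.5 and 108 TPM in the MUT libraries and 92.1, 115 and 151 TPM in the unmarked ones (-0.61 ± 0.16). Itgae, the integrin chain CD103, was at 235 TPM in Tfr MUT and 52.0 TPM in Tfr and at most 5.22 TPM in the CD4+ and non-Tfh pairs (1.17 ± 0.45). The CD4+ pair, which has the fewest B-cell transcripts, held 10479 genes at 1 TPM or more in CD4+ MUT and 10485 in CD4+.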
